A study of Mus musculus with 18 samples.

Results

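Bulk RNA sequencing compared the cerebral cortex of male C57BL/6J mice labelled Mcph1 knockout (P4_Mcph1KO) with that of wild-type males (P4_WT) at postnatal day 4 (P4). The comparison used 4 of the 18 libraries of the series, 2 per group, chosen by their labels alone. Besides genotype, the labels give both groups the same strain, sex, tissue and stage, and name no other allele or agent. The mutant allele, the Cre or targeting design and the number of animals behind each library are not given in the sources used here, so p-values measure the spread between libraries, which may be technical. The cortex was minced, the homogenate was divided between DNA and RNA extraction, and libraries were made from total RNA with an NEBNext Ultra kit for a HiSeq 2500 sequencer.

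Mcph1 encodes microcephalin, a protein with BRCT domains that acts in the DNA damage response and delays chromosome condensation before mitosis. Loss of the human gene causes primary microcephaly, a congenitally small brain. In the mouse cortex around P4, cortical neurons have mostly been born and are extending axons and forming synapses, while astrocytes and oligodendrocyte precursors multiply and blood vessels still branch. Bulk cortex RNA mixes these cells with meninges, blood and, depending on the cut, neighbouring brain regions. Fewer cells of a type and less RNA per cell cannot be told apart in such samples.

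Total counts at P4 ran from 24435234 to 27936538 per library, within the 23531045 to 32041849 of the whole series. Levels below are CPM (counts scaled to library size) after TMM scaling, and differences are log2 fold changes of the libraries labelled Mcph1KO over WT with a standard error (SE), from a model of all 16 cortex libraries. The cortical label was borne out by high Mef2c, a transcription factor of cortical neurons (836 and 886 CPM labelled Mcph1KO, against 519 and 1200 CPM in WT). The Y-linked gene Ddx3y stood at 53.9 and 44.3 CPM in the libraries labelled Mcph1KO, against 50.1 and 53.2 CPM in WT. Xist, the RNA of the inactive X chromosome, had 8 and 9 counts, against 8 and 3.

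The 4 libraries did not sort cleanly by genotype. Across 15211 genes, log2 CPM of the 2 libraries labelled Mcph1KO correlated at 0.9681, and of the 2 WT libraries at 0.9598, while the second library labelled Mcph1KO and the second WT library correlated at 0.9758; genes are not independent replicates. The first WT library stood furthest apart. Among 11967 genes with a mean of at least 5 CPM, 38 lay more than 1 log2 unit above and 59 more than 1 below the other 3 libraries there. The same counts were 22 and 14 for the first and 9 and 20 for the second library labelled Mcph1KO, and 9 and 30 for the second WT library. These departures had recognisable genes. Tcf7l2, a transcription factor high in thalamus, reached 9.05 and 4.18 CPM in the libraries labelled Mcph1KO, against 162 and 11.1 CPM in WT. Ttr, the thyroxine carrier made by choroid plexus, reached 77.6 and 736 CPM, against 297 and 0.858 CPM in WT. Lcn2, an acute-phase protein, reached 66.8 and 0.871 CPM, against 0 and 0.206 CPM. The first WT library was high for Tcf7l2 and the first library labelled Mcph1KO for Lcn2, while Ttr was near 0 in the second WT library and uneven in the others.

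Mcph1 (chromosome 8, 18595131 to 18803189, GRCm38.p6) showed no loss in the libraries labelled Mcph1KO. They held 14.7 and 13.4 CPM (439 and 370 counts), against 12.3 and 10.7 CPM (331 and 312 counts) in WT. The log2 fold change was 0.29 ± 0.19 (SE; unadjusted p = 0.147, edgeR), and the 2 groups did not overlap, with the libraries labelled Mcph1KO higher. The same order held at the stage labelled A6w, with 16.2 and 16.6 CPM labelled Mcph1KO, against 9.66 and 9.02 CPM in WT, and at A18w, with 13.9 and 11.7 CPM, against 8.36 and 9.72 CPM. In the embryonic cortex labelled E17.5 the groups overlapped, with 12.2 and 13.2 CPM, against 12.5 and 10.1 CPM. Gene-level counts cannot show a deletion of single exons. Because the targeted gene did not check the labels, each direction below is between libraries labelled Mcph1KO and WT libraries.

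No gene passed the adjusted threshold at P4. Of 19199 genes tested with edgeR's quasi-likelihood test, 0 had a Benjamini-Hochberg adjusted p under 0.05 (0% called), and the smallest adjusted p was 0.94. At an unadjusted p under 0.05, 383 genes were higher (1.99%) and 335 lower (1.74%) in the libraries labelled Mcph1KO, 718 in all (3.74%). DESeq2 called 13 genes (0.0677%) on the same libraries, 10 higher and 3 lower. Adding the replicate number as a block gave 5 calls (0.026%). Groups that did not overlap were common: both libraries labelled Mcph1KO lay above both WT libraries at 2887 genes (15%) and below them at 2799 (14.6%), 5686 in all (29.6%). Fold changes split evenly around 0, with 9716 genes above (50.6%) and 9424 below (49.1%) and a median of 0. These shares are the background for the gene lists below, of which 1047 entries were tested and 31 were not, being too low or unmatched. In simulated libraries, changes were placed at once in 100 genes per fold, all well above the filter's minimum count. The same test recovered 46% of these 2-fold and 91% of these 4-fold changes at P4. Recovery in genes of lower count was not simulated.

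**Figure D1:**
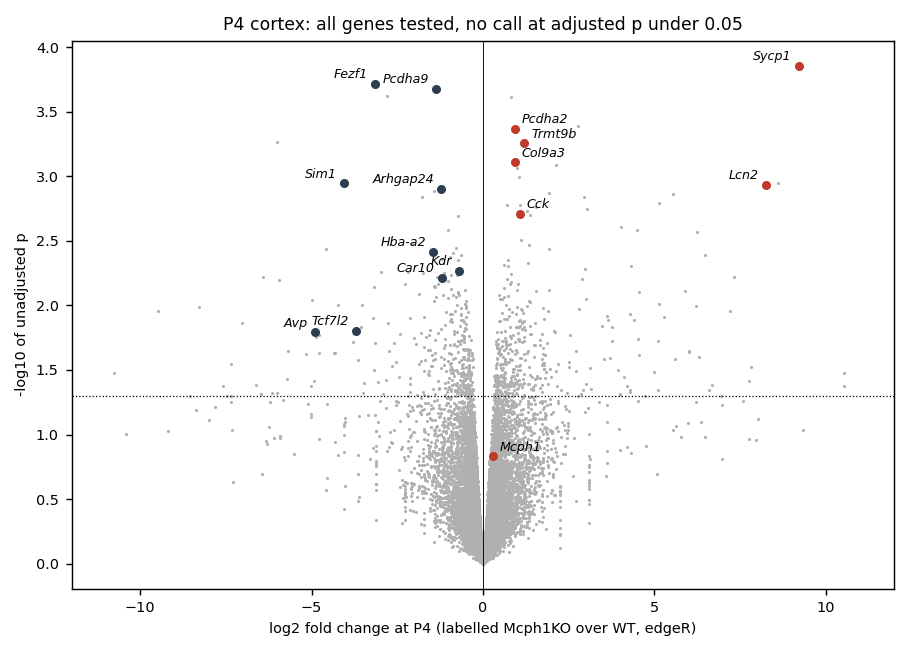
Unadjusted significance (−log10 of edgeR's p) against the log2 fold change of the libraries labelled Mcph1KO over WT for the 19199 genes tested at P4; the dotted line marks an unadjusted p of 0.05, and fitted folds of genes with 0 counts in a group depend on the prior count. No gene passed the adjusted threshold, and Mcph1 lies among the genes with little difference.

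Among named genes, the lowest unadjusted p belonged to Sycp1, which encodes a protein of the synaptonemal complex that pairs chromosomes in meiosis. It had 3.25 and 2.22 CPM (97 and 61 counts) in the libraries labelled Mcph1KO, against 0 and 0 counts in WT. Its level was thus at least 51.4-fold higher, taking 3 counts over the WT group as the limit (unadjusted p = 0.000139, edgeR; adjusted p = 0.00159, DESeq2). This low but clean split also held elsewhere in the series: Sycp1 had 0.35 to 2.88 CPM in the 6 other cortex libraries labelled Mcph1KO, and 0 to 0.22 CPM in the 6 other WT libraries. Trpc2, a cation channel gene best known from the vomeronasal organ, was likewise at 1.04 and 1.05 CPM, against 0 and 0 counts in WT, at least 19.5-fold higher by the same limit. Unlike Sycp1, Trpc2 was uneven within groups elsewhere, with 1.68 and 1.53 CPM labelled Mcph1KO at E17.5, against 1.99 and 0 CPM in WT.

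The clustered protocadherin alpha genes differed in both directions. Their variable first exons each encode a cell-surface adhesion domain, and a neuron expresses a few of them, chosen stochastically. The 13 members tested lie on chromosome 18 and share their last exons, so reads from the shared part are divided among them by estimate and each level is uncertain. Pcdha9 had 24.6 and 16.6 CPM in the libraries labelled Mcph1KO, against 46.7 and 59.8 CPM in WT (log2 fold change -1.37 ± 0.27, SE; unadjusted p = 0.000209, edgeR; adjusted p = 0.00283, DESeq2). Pcdha6 had 13.6 and 5.92 CPM, against 25.2 and 28.0 CPM (-1.44 ± 0.35). The groups did not overlap for these members, with the libraries labelled Mcph1KO lower. Pcdha2 went the other way, with 51.0 and 58.4 CPM, against 24.4 and 33.2 CPM (0.92 ± 0.20; adjusted p = 0.0498, DESeq2). Pcdha1 had 16.1 and 15.3 CPM, against 6.42 and 8.89 CPM, and Pcdha8 had 2.95 and 8.71 CPM, against 1.45 and 2.03 CPM. Pcdha3 was 0.45 ± 0.20 higher. The other 7 members overlapped between groups, and the median of the 13 was -0.04. In all, 6 of 13 had an unadjusted p under 0.05 (edgeR), 4 higher and 2 lower, beside 1.99% and 1.74% of all genes. The Pcdha9 difference at P4 lay -0.25 ± 0.31 from its mean at the other stages, a distance within its error, and that of Pcdha6 lay 0.37 ± 0.40. The Pcdha2 difference lay -0.53 ± 0.23 from its mean there (unadjusted p = 0.0356, adjusted p = 0.984, edgeR). It was the only 1 of the 13 with an unadjusted p under 0.05 in that comparison.

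Other genes higher in the libraries labelled Mcph1KO encode enzymes, matrix proteins, signalling peptides and receptors. Trmt9b, a homologue of yeast tRNA methyltransferase Trm9 (chromosome 8, 36457548 to 36516570), had 16.2 and 12.7 CPM, against 6.53 and 6.08 CPM in WT (log2 fold change 1.20 ± 0.26; unadjusted p = 0.000557, edgeR; adjusted p = 0.0312, DESeq2). Col9a3, a chain of type IX collagen (chromosome 2, 180597790 to 180622189), had 29.6 and 25.7 CPM, against 15.2 and 14.1 CPM (0.92 ± 0.21; unadjusted p = 0.000778, edgeR). Replicates lay close together for both genes. Cxcl14, a chemokine made by some interneurons, had 47.2 and 43.2 CPM, against 17.6 and 26.3 CPM. Cck, the neuropeptide cholecystokinin, had 80.1 and 67.3 CPM, against 24.9 and 45.1 CPM (1.07 ± 0.28). Wscd1 had 74.0 and 67.3 CPM, against 38.6 and 48.6 CPM, and Vipr1, a receptor of vasoactive intestinal peptide, had 2.91 and 1.85 CPM, against 0.779 and 0.858 CPM. Trmt9b, Col9a3 and these 4 were picked among genes whose P4 groups did not overlap, so lying above both WT libraries follows from that choice. Within 2 Mb of Mcph1, 4 of 15 genes tested had an unadjusted p under 0.05 (26.7%), 3 of them higher, beside 3.74% over all genes. Within 20 Mb the count was 15 of 223 (6.73%), 12 of them higher. These distances were chosen after the values were seen.

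Genes lower in the libraries labelled Mcph1KO included Arhgap24, a Rac and Cdc42 GTPase-activating protein, at 3.45 and 3.59 CPM, against 8.24 and 8.24 CPM in WT (log2 fold change -1.22 ± 0.30; unadjusted p = 0.00125, edgeR). Wls, which carries Wnt ligands to the cell surface for secretion, had 24.1 and 22.2 CPM, against 43.1 and 37.5 CPM (-0.80 ± 0.23). Replicates of each group nearly coincided for Arhgap24 and lay close for Wls. Car10, a carbonic anhydrase-related protein, had 15.8 and 13.4 CPM, against 37.2 and 30.2 CPM (-1.20 ± 0.37), and was the only named gene called with the replicate block (adjusted p = 0.0244, edgeR). Edil3, an integrin-binding matrix protein, had 65.3 and 79.1 CPM, against 105 and 120 CPM. Enpp3, an ectonucleotidase, had 0.871 and 0.763 CPM, against 3.19 and 2.40 CPM. Htra3, a secreted serine protease, had 8.41 and 9.04 CPM, against 13.7 and 22 CPM. None of these 6 passed the adjusted threshold with all libraries and no block. Apart from Car10, they were picked by smallest p among genes whose P4 groups did not overlap. Lying below both WT libraries follows from that choice, and a small p favours close replicates.

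**Figure D2:**
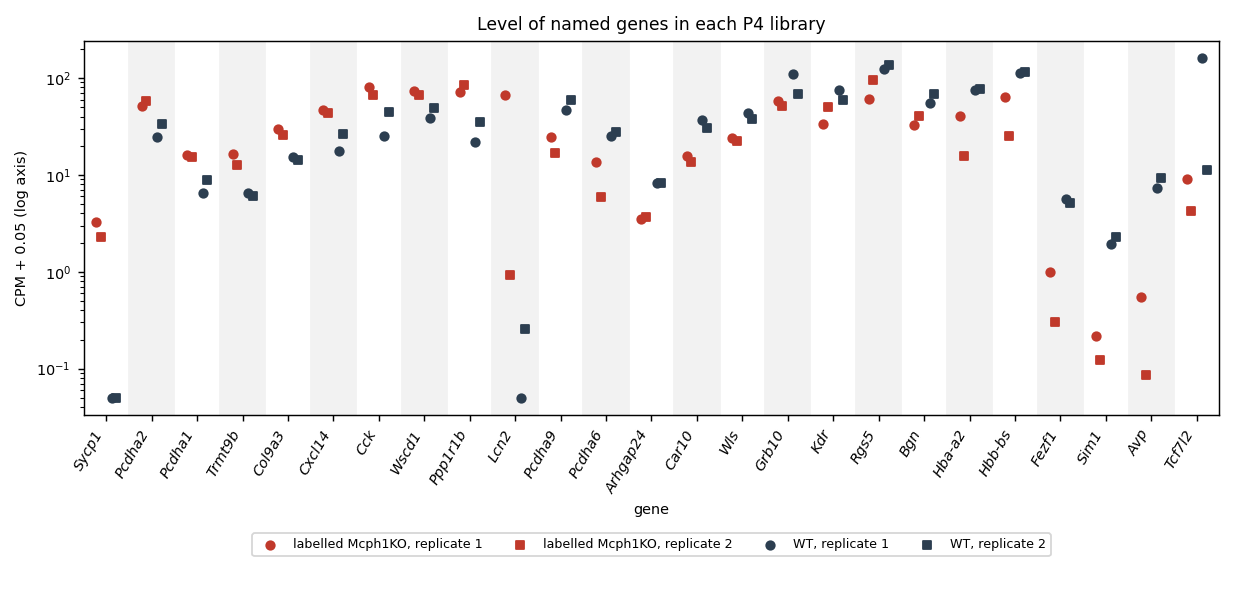
Level of 25 named genes in each P4 library (CPM plus 0.05 on a log axis); circles are replicate 1 and squares replicate 2, with the libraries labelled Mcph1KO left and WT right within each gene. Sycp1 was at 0 in both WT libraries, and the single high points of Lcn2 and Tcf7l2 belong to the first library labelled Mcph1KO and the first WT library.

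Most vascular genes lay below WT in the libraries labelled Mcph1KO, by modest amounts. Of 35 endothelial markers, 26 had a fold change below 0 and 9 above, with a median of -0.34. The groups did not overlap for 14 members on the lower side and 1 on the higher (background 14.6% and 15%). An unadjusted p under 0.05 (edgeR) was reached by 6 lower members and 1 higher (background 1.74% and 1.99%). Kdr, the main receptor of vascular endothelial growth factor, had 33.1 and 50 CPM, against 75.2 and 59.5 CPM in WT (-0.70 ± 0.21; unadjusted p = 0.00537, edgeR). Itm2a had 43.7 and 49.2 CPM, against 65.4 and 76.0 CPM. Both genes were lower in each library labelled Mcph1KO than in either WT library. Emcn, the endothelial sialomucin endomucin, had 2.38 and 3.41 CPM, against 5.38 and 4.15 CPM, and Eng, a co-receptor of transforming growth factor beta, had 21.6 and 31.7 CPM, against 39.1 and 36.0 CPM. Cldn5, a tight junction protein of the blood-brain barrier and the most abundant marker, overlapped between groups (49.0 and 60 CPM, against 47.3 and 91.6 CPM). The median of the list stayed below 0 without each P4 library in turn (-0.43 to -0.23).

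Mural cells, which wrap the vessels, followed the same direction. Of 20 pericyte and smooth muscle markers, 17 were below 0, and the median was -0.53. The groups did not overlap for 11 members, all lower, beside 14.6% of all genes on that side. Rgs5, a pericyte regulator of G-protein signalling, had 60.5 and 94.5 CPM in the libraries labelled Mcph1KO, against 123 and 135 CPM in WT (-0.74 ± 0.24; unadjusted p = 0.00802, edgeR). Vtn, the matrix protein vitronectin made by pericytes, had 38.0 and 37.5 CPM, against 49.9 and 84.0 CPM. Tbx18, a mural transcription factor, had 6.33 and 8.5 CPM, against 13.1 and 14.7 CPM. Each of these was lower in both libraries labelled Mcph1KO. Tagln and Acta2, contractile proteins of smooth muscle, were low throughout, with 2.24 and 2.80 CPM against 3.60 and 5.94 CPM for Tagln, and 2.14 and 4.79 CPM against 6.05 and 8.69 CPM for Acta2. Rgs4, the most abundant gene of the list, is also expressed in neurons and overlapped (84.5 and 120 CPM, against 85.9 and 123 CPM). The median without each library in turn lay between -0.70 and -0.38.

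Meningeal and perivascular fibroblast markers showed the widest gap of these lists: 29 of 30 were below 0, with a median of -0.69. The groups did not overlap for 18 of them, all lower, beside 14.6% of all genes on that side. Col1a2 and Col3a1, fibrillar collagen chains, had 91.3 and 84.4 CPM against 155 and 163 CPM, and 61.1 and 71.4 CPM against 120 and 110 CPM. Bgn, the proteoglycan biglycan, had 32.5 and 40.6 CPM in the libraries labelled Mcph1KO, against 55.3 and 68.8 CPM in WT (-0.76 ± 0.25; unadjusted p = 0.00992, edgeR). Lum, the proteoglycan lumican, had 3.69 and 4.54 CPM, against 9.61 and 8.24 CPM, and Foxc1, a transcription factor of the meninges, had 11.8 and 11.9 CPM, against 19.4 and 21 CPM. The replicates of Foxc1 and of both collagens lay close, yet the unadjusted p was 0.0723 for Foxc1, 0.0763 for Col3a1 and 0.0836 for Col1a2 (edgeR). The model takes its spread from all 16 cortex libraries. The list's mean deviation from the 4-library mean was -0.15 and -0.55 log2 CPM in the libraries labelled Mcph1KO, against 0.25 and 0.45 in WT. How much meninges each cortex kept was not recorded in the labels, and its part in the vascular differences was not tested. Basement membrane genes had 16 of 20 members below 0 (median -0.22), among them Lama4 (28.0 and 28.9 CPM, against 47.4 and 36.3 CPM) and Nid1 (69.7 and 55.7 CPM, against 99.4 and 84.9 CPM). Agrn, the most abundant, did not separate (491 and 448 CPM, against 469 and 441 CPM).

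Of 36 genes of angiogenic signalling, 25 were below 0, with a median of -0.22. The list shares members with the endothelial list, Kdr and Flt1 among them, and with the pericyte list. Flt1, a decoy receptor of vascular endothelial growth factor, had 24.7 and 27.9 CPM, against 50.4 and 26.2 CPM, and Lef1, a transcription factor of Wnt signalling, had 4.39 and 6.97 CPM, against 16.3 and 6.35 CPM. Only the first WT library was high for both, and without it the fold changes were 0 for Flt1 and -0.16 for Lef1. Esm1, a tip-cell protein, was at 0.402 and 0.327 CPM, against 1.26 and 0.824 CPM. The list of 27 hypoxia-response genes lay near the background, with a median of -0.07 and 2 members apart.

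Adult globin transcripts, carried by red blood cells in the tissue, were lower in the libraries labelled Mcph1KO. Hba-a2 had 40.3 and 15.5 CPM, against 75.1 and 77.7 CPM in WT (-1.45 ± 0.41; unadjusted p = 0.00384, edgeR), and Hbb-bs had 63.7 and 25.3 CPM, against 113 and 116 CPM (-1.36 ± 0.44). Hba-a1 had 21.6 and 11.6 CPM, against 29.0 and 68.9 CPM, and Hbb-bt had 11.8 and 5.19 CPM, against 18.6 and 27.7 CPM. In these 4 genes both libraries labelled Mcph1KO lay below both WT libraries, the second library the lowest. Hba-a1 and Hba-a2 transcripts share an identical run of 415 bases, and Hbb-bs and Hbb-bt one of 430 bases, so the split within each pair is uncertain. The red cell list as a whole lay closer to WT: 8 of the 14 members tested, globins included, were below 0. Its median was -0.11 (-0.13 with genes at 0 set at their limit). Alas2, the erythroid enzyme of haem synthesis, had 1.84 and 1.09 CPM, against 1.56 and 4.05 CPM, and Slc4a1, the red cell anion exchanger, had 1.34 and 0.508 CPM, against 0.223 and 0.446 CPM. These 2 genes were picked after their values were seen. Blood left in the tissue was not recorded in the labels, and its part was not tested.

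**Figure D3:**
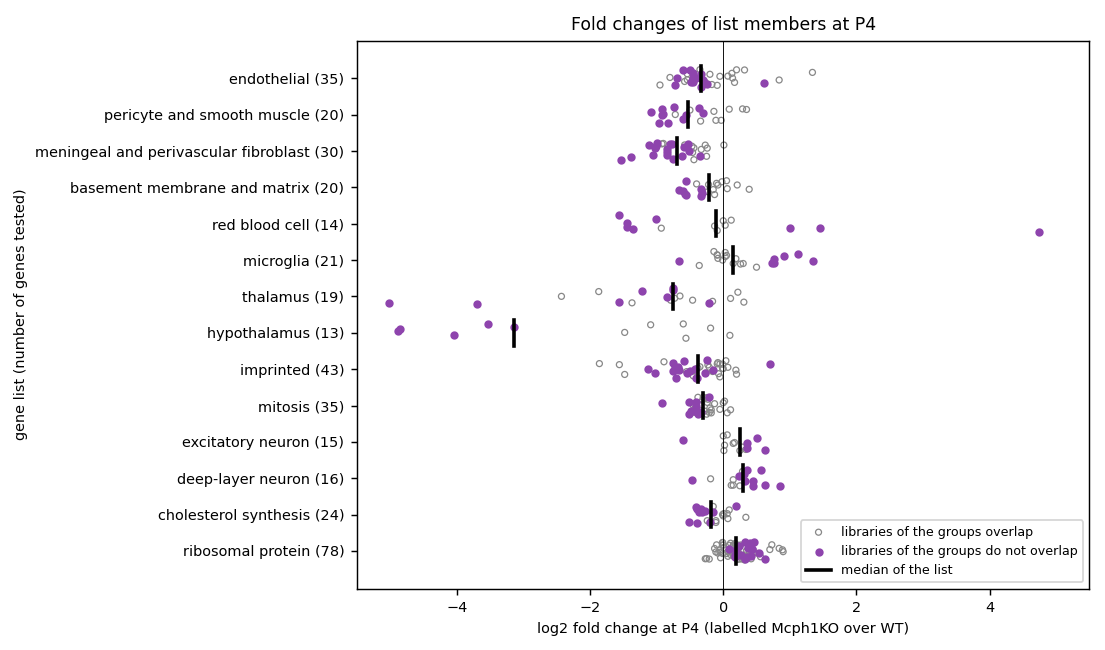
Log2 fold change at P4 (libraries labelled Mcph1KO over WT) of each tested member of 14 gene lists; filled points are members whose groups did not overlap, and black bars are list medians. The vascular, mural and fibroblast medians lie at -0.34, -0.53 and -0.69, and the hypothalamic median at -3.15; the fitted folds of members with 0 or near 0 counts in a group depend on the prior count.

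The immune lists did not lean one way, but single genes of microglia and of acute inflammation were higher in the libraries labelled Mcph1KO, chiefly through the first of the 2. Of 21 microglia markers, 14 were above 0 (median 0.15). An unadjusted p under 0.05 (edgeR) was reached by 4, all higher, beside 1.99% of all genes on that side. Itgam, the integrin CD11b, had 9.62 and 3.78 CPM, against 2.93 and 2.33 CPM in WT (1.35 ± 0.38; unadjusted p = 0.0034, edgeR). C1qa and C1qc, chains of the first complement component, had 21.1 and 9.70 CPM against 5.08 and 8.99 CPM, and 21.4 and 10.1 CPM against 8.39 and 8.24 CPM. Ctss, the protease cathepsin S, had 15.8 and 9.70 CPM, against 7.79 and 7.24 CPM. The second library labelled Mcph1KO lay only slightly above WT in these genes, and without the first the fold changes were 0.52 for Itgam, 0.46 for C1qa, 0.28 for C1qc and 0.37 for Ctss. The median of the list then turned to -0.19. Of 10 border macrophage markers 7 were above 0, with a median of 0.14 that became -0.48 without that library. Csf1r, the receptor on which microglia depend for survival and one of their most abundant markers, overlapped between groups, with 36.0 and 27.4 CPM, against 34.5 and 27.7 CPM.

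Among genes named for their fold or for standing apart in 1 library, the first library labelled Mcph1KO held the highest C4b, a complement component (14.2 and 3.78 CPM, against 1.74 and 3.54 CPM), Icam1, a leukocyte adhesion molecule (16.3 and 2.54 CPM, against 4.23 and 3.06 CPM), and Mt2, a metal-binding stress protein (68.0 and 14.5 CPM, against 25.2 and 8.44 CPM). Without that library Icam1 lay at -0.52 and Mt2 at -0.21. Lrg1, a glycoprotein induced in acute inflammation, had 2.85 and 0.182 CPM, against 0.111 and 0.0687 CPM. Bcl3, a regulator of NF-kappa-B, had 1.51 and 0.581 CPM, against 0.0742 and 0.172 CPM. S100a9, a neutrophil protein, had 1.41 and 1.13 CPM, against 0.148 and 0.206 CPM, high in both libraries labelled Mcph1KO. Lrg1, Bcl3 and S100a9 were picked among genes whose P4 groups did not overlap, so lying above both WT libraries follows from that choice. Interferon-response genes leaned the other way, with 24 of 34 below 0 and a median of -0.29 (-0.01 without the first WT library). Ifit3, an interferon-induced antiviral protein, had 1.11 and 0.472 CPM, against 2.08 and 2.30 CPM.

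Markers of brain regions beneath the cortex were among the largest differences. Of 13 hypothalamic markers tested (19 listed), 12 were below 0. The list median was -2.70 when genes with 0 counts in a group were set at their limit. The groups did not overlap for 5 markers, all lower, beside 14.6% of all genes on that side. Fezf1, a forebrain transcription factor active in the developing hypothalamus, had 0.938 and 0.254 CPM in the libraries labelled Mcph1KO, against 5.60 and 5.11 CPM in WT (-3.15 ± 0.61; unadjusted p = 0.000192, edgeR; adjusted p = 0.00159, DESeq2). Avp, the hormone vasopressin, had 0.503 and 0.0363 CPM (15 and 1 counts), against 7.35 and 9.17 CPM. Sim1, a transcription factor of hypothalamic neurosecretory neurons, had 5 and 2 counts, against 51 and 65 counts. Otp, a partner in the same lineage, had 1.01 and 0 CPM, against 7.72 and 4.19 CPM. These 4 genes were low in both libraries labelled Mcph1KO and present in both WT libraries. They were picked among genes whose P4 groups did not overlap, so lying below both WT libraries follows from that choice. Pmch, melanin-concentrating hormone, had 2 and 1 counts, against 87 and 2, a ratio of 0.0329 with a counting interval of 0.00666 to 0.0994. It was thus high in the first WT library alone. Without that library the fitted list median, which was -3.15 with all 4 libraries and no limits set, was -0.36. Fezf1, Avp and Sim1 stayed at -3.08, -5.05 and -4.15.

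Thalamic markers depended more on the first WT library. Of 19 tested, 16 were below 0, with a median of -0.76 that moved to -0.28 without that library. The list's mean deviation was -0.25 and -0.62 log2 CPM in the libraries labelled Mcph1KO, against 1.06 and -0.19 in WT. Tcf7l2 had a fold change of -3.70 ± 1.33 with all 4 libraries and of -0.75 without the first WT library. Shox2, a transcription factor of the thalamus, had 1 and 2 counts, against 96 and 4. Slc17a6, the vesicular glutamate transporter of subcortical neurons, was less tied to it, with 36.7 and 50.7 CPM, against 87.6 and 70.0 CPM (-0.85 ± 0.32). Choroid plexus genes varied widely within each group: 12 of 17 were above 0, yet none was apart on the higher side and 2 were on the lower (background 15% and 14.6%). The list's mean deviation was -0.45 and 1.14, against 0.65 and -1.33. Its median of 0.70 became -0.52 without the second library labelled Mcph1KO. Of 19 striatal markers 15 were above 0 (median 0.24, and 0.06 without the second WT library), led by Ppp1r1b, the dopamine-regulated phosphatase inhibitor DARPP-32, at 71.0 and 84.7 CPM, against 21.7 and 35.1 CPM. The dissection border is not given in the sources used here, and its part in these differences was not tested.

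**Figure D4:**
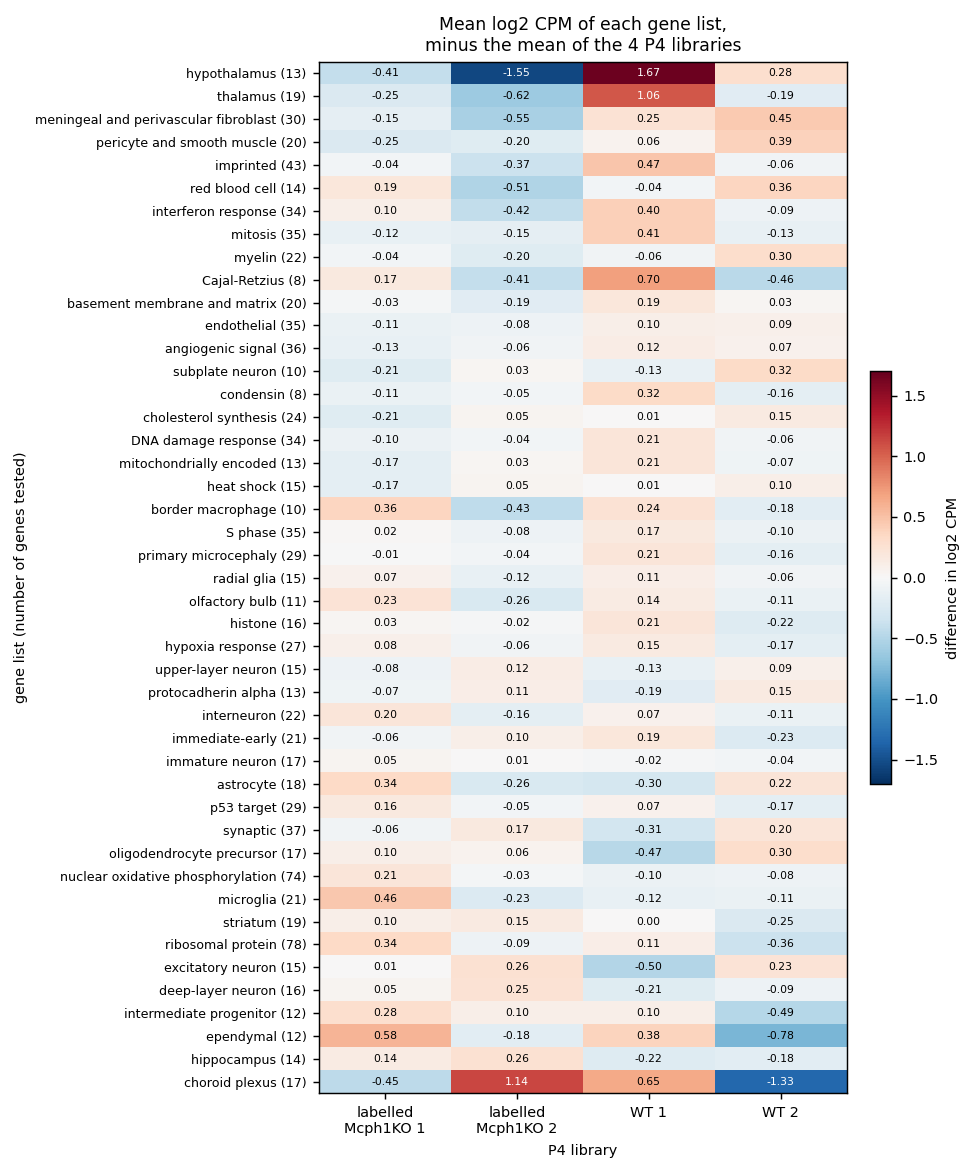
Mean log2 CPM of each gene list in each P4 library minus the mean of the 4 libraries, the libraries labelled Mcph1KO in the left columns and WT in the right; red is above and blue below that mean. The hypothalamic list spans -1.55 to 1.67 and the choroid plexus list -1.33 to 1.14, with the extremes in single libraries.

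Imprinted genes, expressed from 1 parental copy and often tied to growth, were mostly lower: 38 of 43 were below 0, with a median of -0.38. The groups did not overlap for 17 members on the lower side and 1 on the higher (background 14.6% and 15%). Grb10, an adaptor that restrains growth factor receptors, had 57.5 and 51.2 CPM in the libraries labelled Mcph1KO, against 111 and 68.0 CPM in WT (-0.72 ± 0.21; unadjusted p = 0.00446, edgeR). Cdkn1c, an inhibitor of the cell cycle, had 42.8 and 47.9 CPM, against 87.6 and 66.5 CPM, and Plagl1, a zinc-finger factor, had 46.6 and 40.5 CPM, against 69.6 and 53.5 CPM. H19, a long noncoding RNA, had 43.7 and 20.1 CPM, against 92.3 and 47.2 CPM. In all 4 the first WT library was the highest. Without it the median of the list was -0.09, Grb10 lay at -0.32 and Cdkn1c at -0.55. Gnas and Nnat, the most abundant members, had 1310 and 1260 CPM against 1560 and 1480 CPM, and 1160 and 898 CPM against 1450 and 965 CPM. The list shares Dlk1 with the hypothalamic list and Dcn with the fibroblast list.

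Lists of cortical neurons differed in direction, and the deep-layer list leaned upward in the libraries labelled Mcph1KO. Of 16 deep-layer markers 14 were above 0, with a median of 0.30, and 9 did not overlap on the higher side, beside 15% of all genes. Bcl11b (Ctip2), a factor of corticospinal neurons, had 240 and 323 CPM, against 221 and 192 CPM, and Nfib, a nuclear factor of deep layers and glia, 272 and 294 CPM, against 222 and 194 CPM. Crym, a thyroid-hormone binding protein, had 73.2 and 107 CPM, against 33.8 and 65.8 CPM. The separations were small, and no deep-layer marker had an unadjusted p under 0.05 (edgeR). The list median stayed above 0 without each library in turn (0.14 to 0.38). Of 15 excitatory markers 14 were above 0 (median 0.25). Neurod2, a neuronal differentiation factor, had 231 and 234 CPM, against 132 and 168 CPM (0.63 ± 0.27), while Nrgn, a postsynaptic calmodulin-binding protein, had 377 and 406 CPM, against 125 and 486 CPM. Nrgn was low in the first WT library alone, and without that library the median of the excitatory list turned to -0.23.

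Subplate markers, of the earliest cortical neurons, had 7 of 10 below 0, with a median of -0.34. That median became -0.03 without the second WT library and -0.10 without the first library labelled Mcph1KO. Only 2 of the 10 did not overlap, both lower, near the background of 14.6% of all genes. Upper-layer markers were balanced (9 of 15 above 0, median 0.04), with Pou3f3, an upper-layer POU factor, at 316 and 297 CPM, against 211 and 194 CPM, and Kitl, the ligand of the Kit receptor, at 61.9 and 109 CPM, against 198 and 112 CPM. Of 37 synaptic genes 24 were above 0, with a median of 0.08 (-0.18 without the first WT library). Of 22 interneuron markers 10 were above 0 (median -0.04), and the low-level neuropeptide Vip had 2.91 and 2.03 CPM, against 0.297 and 1.68 CPM. Tubb2b, a tubulin of growing neurons and the most abundant immature neuron gene, was level at 4030 and 3790 CPM, against 3640 and 4190 CPM.

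Glial lists gave mixed results. Of 18 astrocyte markers 10 were above 0, with a median of 0.20 that became -0.07 without the first WT library. Slc1a3 and Slc1a2, the astrocytic glutamate transporters, had 485 and 349 CPM against 305 and 323 CPM, and 379 and 347 CPM against 205 and 302 CPM. Gjb6, connexin 30, went the other way with 6.30 and 5.27 CPM, against 11.5 and 13.7 CPM. Oligodendrocyte precursor genes lay near the background (10 of 17 above 0, median 0.15, and -0.21 without the first WT library), with Cspg4, the NG2 proteoglycan, at 40.0 and 29.3 CPM, against 24.5 and 26.7 CPM. Of 22 myelin genes 13 were below 0, with a median of -0.16 that became 0.01 without the second WT library. Cldn11, the claudin of myelin and of the arachnoid, had 17 and 10.5 CPM, against 32 and 27.2 CPM. Mbp, myelin basic protein, did not separate (46.2 and 42.6 CPM, against 34 and 56.6 CPM).

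The processes closest to microcephalin showed small differences, set mostly by 1 library. Of 35 mitosis genes 31 were below 0 (median -0.31), 10 of them without overlap, beside 14.6% of all genes on that side. But the first WT library lay 0.41 log2 CPM above the 4-library mean, while the other WT library lay at -0.13. The libraries labelled Mcph1KO lay at -0.12 and -0.15. Without the first WT library the median was 0. Bub1, a spindle checkpoint kinase, had 3.35 and 3.23 CPM, against 7.42 and 5.01 CPM, and Top2a, the mitotic topoisomerase, 42.6 and 42.8 CPM, against 75.7 and 40.4 CPM, with a fold change of 0.08 without that library. Of 8 condensin genes 6 were below 0, with a median of -0.08 (0.10 without that library). Ncapg, a subunit of condensin I, had 4.52 and 3.81 CPM, against 9.61 and 4.74 CPM (-0.19 without it), and Ncaph2, of condensin II, 93.6 and 76.3 CPM, against 77.2 and 82.3 CPM. Of 29 primary microcephaly genes, some also on the condensin and mitosis lists, 19 were below 0 (median -0.06, and 0.15 without that library). None of the 29 had an unadjusted p under 0.05 (edgeR). Mfsd2a, the brain's lipid transporter at the blood-brain barrier and also on the endothelial list, had the lowest p among them, with 19.6 and 22.1 CPM, against 24.9 and 27.9 CPM. Of 34 DNA damage response genes 28 were below 0 (median -0.17, and -0.04 without it), with Nbn, a member of the MRN break-sensing complex, at 13 and 11.4 CPM, against 17.2 and 14.9 CPM. Of 29 targets of p53 17 were above 0 (median 0.10). S-phase genes were balanced at 15 of 35 above 0. Intermediate progenitor genes had 11 of 12 above 0 with a median of 0.33, though only 2 members were apart, both higher, beside 15% of all genes on that side.

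Genes of the ribosome and nuclear genes of respiration were slightly higher, while those encoded by mitochondrial DNA leaned lower. Of 78 ribosomal protein genes 63 were above 0 (median 0.19), and of 74 nuclear genes of oxidative phosphorylation 61 were (median 0.14, and 0.01 without the first library labelled Mcph1KO). Rpl8 had 361 and 295 CPM in the libraries labelled Mcph1KO, against 189 and 287 CPM in WT, and Fau 238 and 139 CPM, against 153 and 78.6 CPM. The ribosomal list deviated from the 4-library mean by 0.34 and -0.09, against 0.11 and -0.36, so replicates differed more widely than the group means did. Its median without the first library labelled Mcph1KO was -0.01. These transcripts are short: the 222 protein-coding genes with exons of up to 1000 bases had a median fold change of 0.12, against -0.04 for the 2673 with over 8000 bases. The part of transcript length was not tested. The 13 genes encoded by mitochondrial DNA leaned lower (12 below 0, median -0.14, and 0.05 without the first library labelled Mcph1KO), such as mt-Co1 at 9140 and 9590 CPM, against 11600 and 9920 CPM. Of 24 cholesterol synthesis genes 18 were below 0 (median -0.18, and -0.04 without the first library labelled Mcph1KO), with Msmo1 at 53.3 and 73.9 CPM, against 103 and 79.8 CPM, and Hmgcs1 at 660 and 853 CPM, against 859 and 962 CPM.

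**Figure D5:**
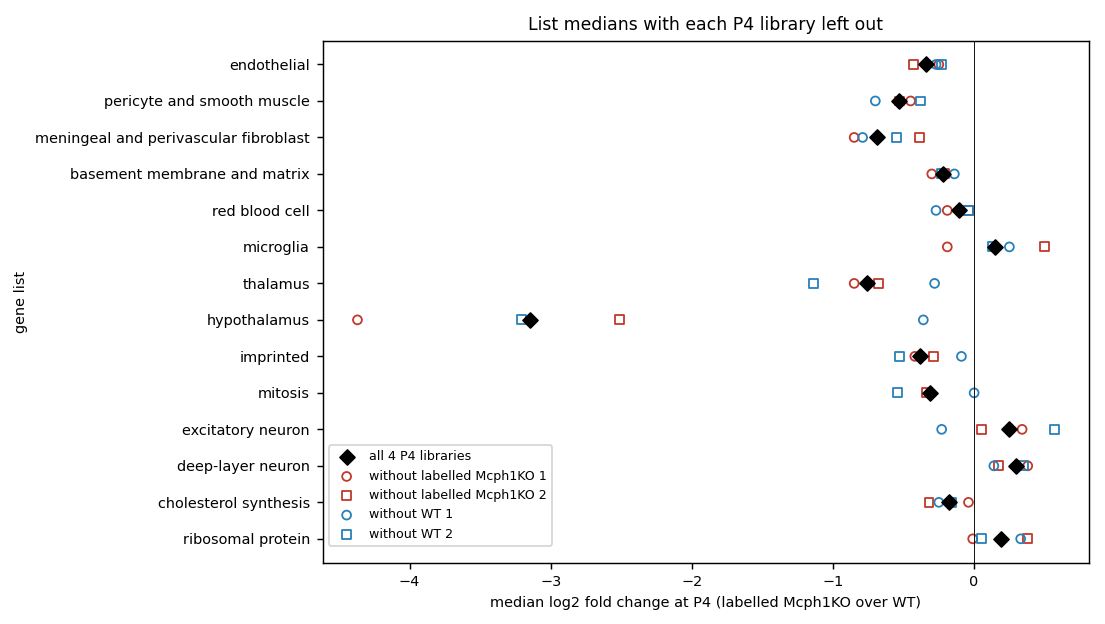
Median log2 fold change at P4 (libraries labelled Mcph1KO over WT) of 14 gene lists, with all 4 libraries (diamonds) and with each left out in turn (open symbols). The endothelial median stays between -0.43 and -0.23 and the fibroblast median between -0.85 and -0.39, while the mitosis median reaches 0 and the hypothalamic median -0.36 without the first WT library.

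The P4 difference was also set against the differences at the other stages. No gene passed the adjusted threshold in either comparison (edgeR, 0% each). Against the mean difference at E17.5 and the stages labelled A6w and A18w, 850 genes had an unadjusted p under 0.05 (4.43%) and DESeq2 called 12 (0.0625%). Against E17.5 alone, 575 did (2.99%) and DESeq2 called 11 (0.0573%). Col9a3 had the smallest p of this departure among named genes: it was 1.32 ± 0.24 log2 units higher at P4 relative to the mean of the other stages (unadjusted p = 0.00012, edgeR; adjusted p = 0.984). At E17.5 it had 12.9 and 19.6 CPM in the libraries labelled Mcph1KO, against 28.9 and 27.9 CPM in WT, the reverse of P4. Trmt9b likewise had 7.63 and 4.67 CPM, against 9.88 and 8.73 CPM at E17.5, and departed from the mean of the other stages by 1.39 ± 0.30. Fezf1 departed by -3.95 ± 0.87, with 7.31 and 14.3 CPM at E17.5, against 3.52 and 7.28 CPM. Fbln5, a matrix protein of elastic fibres, was at 7.07 and 9.19 CPM at P4, against 16 and 15.2 CPM, and at 7.92 and 11.1 CPM at E17.5, against 4.66 and 6.08 CPM. Grb10 stood at 188 and 199 CPM at E17.5, against 159 and 140 CPM, and departed by -0.99 ± 0.24. In these 5 genes the groups did not overlap at either stage, in opposite directions, though Fezf1 at E17.5 did so barely (7.31 against 7.28 CPM). The genes were named for their departure between stages, so the reversal follows in part from that choice: 13 of the 19 genes so named showed it, beside 717 of all 19199 (3.73%). Wls, named the same way, did not, with 30.3 and 42.8 CPM at E17.5, against 32.2 and 38.9 CPM.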

How the data were processed

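Gene-level RNA counts came from 18 libraries, and the 16 cortex libraries were fitted together. The submitters' processing notes name Trimmomatic 0.39, FastQC, Salmon 1.4.0 and the build GRCm38.p6. The deposited table holds estimated counts per gene, as whole numbers, and how they were summed per gene is not given in the sources used here. Symbols and coordinates came from the annotation of that build. Genes passing edgeR's filter (minimum count 10, total 15) were scaled by TMM and tested with the quasi-likelihood F test of edgeR 4.0.16 (R 4.3.3), 1 coefficient per group, with Benjamini-Hochberg adjustment over 19199 genes and a threshold of 0.05. DESeq2 1.42.0 was the alternative tool. Other alternatives changed the scaling, the filter, the libraries fitted, the replicate block, or left out 1 library each. The fit was checked on simulated data.

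Named genes were Mcph1, and the 12 genes of smallest p and the 8 of largest fold in each direction. These had a mean of at least 1 CPM in either P4 group and P4 groups that did not overlap. In each list the 4 of smallest p and the 2 most abundant were named. Genes with clone or model names were counted but not named, including those that DESeq2 called. Added were the protocadherin alpha cluster, genes DESeq2 called, and 6 genes per direction for each library standing apart and each comparison between stages. The comparison, the gene lists and this rule were chosen with earlier results of these data known. Genes at 0 in a group were compared with a limit of 3 counts over the group, and ratios of low counts have exact 95% intervals. Both cover counting error only. Some genes that this rule picks are not reported here.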

Additional observations from a re-analysis of the deposited data

Results flagged for a closer look

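Of 46 gene lists, 2 had every library labelled Mcph1KO on one side of WT at P4 and on the other side at E17.5 by their mean log2 CPM, and the difference between the stages was not tested for a list. Pericyte and smooth muscle markers averaged 2.64 and 2.70 log2 CPM in the P4 libraries labelled Mcph1KO, against 2.96 and 3.28 in WT, a difference of -0.45. At E17.5 they averaged 3.04 and 3.35, against 2.83 and 2.76, a difference of 0.40. Immature neuron markers averaged 10.20 and 10.16 at P4, against 10.13 and 10.11, a difference of 0.06, and 10.33 and 10.18 at E17.5, against 10.36 and 10.37, a difference of -0.11. The immature neuron differences are small. Single genes showed the same pattern at 717 of 19199 tested (3.73%), so 2 lists of 46 are reported as values and not as a result about either cell type.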

How the results depend on the processing

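The count of 0 genes called at P4 stayed at 0 in both directions with DESeq2's size factors, with scaling by total count and with the stem cell libraries added. DESeq2 called 10 genes higher and 3 lower, and in the simulated P4 data it called 44 unchanged genes, beside 7 with edgeR. Without a filter on low counts 107 were called higher and 118 lower, a setting that adds genes with few counts. A fit of the 4 P4 libraries alone called 1 higher and 0 lower. The same replicate number deviated together only weakly (correlation 0.268 over 15211 genes, 2 pairs), so the numbers do not establish a pairing. The fit with the replicate block called 3 higher and 2 lower. Leaving out each P4 library in turn gave 0 to 0 genes higher and 0 to 1 lower, the 1 without the second library labelled Mcph1KO. Against the other stages, DESeq2 called 12 and the fit with no filter 217, and leaving out each library gave 0 to 0. Against E17.5, DESeq2 called 11, the fit with no filter 180 and the replicate block 6, with 0 to 0 when each library was left out. The cause of these differences was not tested. Leaving out 1 P4 library at a time put 36 of 184 list medians on the other side of 0, in 25 of 46 lists, and 16 of 436 fold changes of named genes, in 13 of 109 genes; the other settings did so for 3 of 322 medians and 1 of 760 fold changes. The 2 libraries per group limit precision: edgeR recovered 46% of 2-fold changes simulated at P4 in genes of higher count. Smaller differences at single genes, and differences in genes of low count, could pass unseen.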
